A study of Homo sapiens with 60 samples.

Results

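The question was how the response of MDA-MB-231 cells to the lowest dose of BAY2506856 changed between 6 h and 24 h. MDA-MB-231 is a human triple-negative breast cancer cell line of mesenchymal character, and the labels used here give no target for the compound. The comparison was chosen by its labels: the effect of 100 nM against DMSO, the solvent control, at 24 h minus the same effect at 6 h. It rests on 18 of the 60 libraries of the series: 3 libraries at 100 nM for 6 h, 3 at 100 nM for 24 h, 6 with DMSO for 6 h and 6 with DMSO for 24 h. All 18 share the cell line, with no other agent or genetic change named. Poly(A) RNA was sequenced from stranded libraries, and nothing in the labels says whether the libraries of a group came from separate cultures. The p-values therefore measure the spread between libraries within groups, which may be technical. That spread was estimated over all 60 libraries in 16 groups, and not from the 18 alone.

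Levels are given in FPKM, read counts scaled to transcript length and to the depth of the library. Log2 changes were taken on log2(FPKM + 0.5), which understates the change of low genes, and carry limma's standard error (SE). A gene was called when limma's adjusted p was under 0.05 over the 15866 genes tested. In bulk RNA, fewer cells carrying a message and less of it per cell cannot be told apart.

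The libraries differed in depth and in kind. The 100 nM libraries held 9.31 to 48.8 M reads and the DMSO libraries 0.475 to 24.0 M. A set of 11 pseudogenes was high in 13 of the 60 libraries, called the second library type here. Of the 18 libraries compared, DMSO 6 h replicate 5 and DMSO 24 h replicate 2 were of that type, and the latter was the shallowest with 0.475 M reads. All 6 of the 100 nM libraries were of the first type. The 10 genes that mark MDA-MB-231, among them VIM, CD44 and AXL, summed to 1379 to 1676 FPKM in every library, and ESR1, the estrogen receptor, was at 0 FPKM in all 18. Of the 8 genes listed as absent from this line, ERBB2 (5.40 to 10.6 FPKM), EPCAM (4.43 to 9.03) and GATA3 (2.68 to 5.58) were detected in every library. CDH1, E-cadherin, was at 0.867 to 1.07 FPKM at 100 nM for 24 h and at or below 0.516 in the other libraries.

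YAP1 and TAZ are coactivators of the TEAD transcription factors. A tense actin skeleton keeps them in the nucleus, where they turn on genes of matrix, growth and feedback, and MDA-MB-231 is known for high YAP1 activity. CTGF and CYR61, secreted matrix proteins, and ANKRD1, a nuclear ankyrin repeat protein, are their textbook targets. The E2F factors in turn drive the genes of DNA replication that a cell needs to enter S phase.

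Promoter sequences are shown for 4 genes, chosen because their promoter held the motif searched: CTGF and ANKRD1, low at both times, and GINS2 and MCM3, replication genes low at 24 h. They are the 250 bases before the start of each gene, 5′ to 3′ on the gene's strand, from RefSeq on GRCh38.p14, where all 4 genes lie on the minus strand. The expression values were made on hg19, so these coordinates are not those of the deposited data. Capitals in the CTGF and ANKRD1 promoters mark GGAATG, the core of the TEAD motif, and those in GINS2 and MCM3 mark an E2F word; both strands were searched.
CTGF, chr6:131951373-131951622: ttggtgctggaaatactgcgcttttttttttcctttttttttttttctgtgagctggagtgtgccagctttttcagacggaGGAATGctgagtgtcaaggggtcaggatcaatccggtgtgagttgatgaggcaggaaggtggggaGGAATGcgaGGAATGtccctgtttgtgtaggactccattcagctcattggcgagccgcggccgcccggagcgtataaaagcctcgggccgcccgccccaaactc
ANKRD1, chr10:90921088-90921337: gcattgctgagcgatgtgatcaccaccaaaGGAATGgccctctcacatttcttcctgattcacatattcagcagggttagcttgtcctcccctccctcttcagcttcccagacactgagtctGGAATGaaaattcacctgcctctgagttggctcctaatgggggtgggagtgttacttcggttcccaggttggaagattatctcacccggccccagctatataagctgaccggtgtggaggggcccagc
GINS2, chr16:85688955-85689204: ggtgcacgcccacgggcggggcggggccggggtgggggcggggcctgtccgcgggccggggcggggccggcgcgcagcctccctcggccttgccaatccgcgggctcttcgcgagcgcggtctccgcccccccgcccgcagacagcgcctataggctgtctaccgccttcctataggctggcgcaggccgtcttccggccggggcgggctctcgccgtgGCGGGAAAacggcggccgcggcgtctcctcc
MCM3, chr6:52284743-52284992: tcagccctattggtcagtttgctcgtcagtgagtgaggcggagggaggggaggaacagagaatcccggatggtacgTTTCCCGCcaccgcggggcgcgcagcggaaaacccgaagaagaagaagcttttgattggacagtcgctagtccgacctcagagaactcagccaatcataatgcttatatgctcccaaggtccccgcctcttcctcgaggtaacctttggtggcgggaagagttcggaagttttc
CTGF held 3 such matches and ANKRD1 held 2, and GINS2 and MCM3 held 1 E2F word each, GCGGGAAA and TTTCCCGC, which are the same word on opposite strands. GGAATG occurred in 3248 of the 27305 promoters of the RefSeq table (11.9%), and 1 of the 4 E2F words searched (TTTCGCGC, TTTGGCGC, TTTCCCGC and TTTGCCGC) in 761 (2.8%). Most genes of the same time courses held no such match: GGAATG was in 10 of 62 promoters of the 75 genes that held a lower effect, with EDN1 and F3 among those without it, and an E2F word in 27 of 214 promoters of the 273 late genes that fell. Among the 9343 genes tested with an entry, the shares were 9.4% for GGAATG and 4.7% for the E2F words. Only 58.9% of the genes tested had an entry, so a comparison with them is void and none is drawn. A match describes these letters and not a bound site.

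The response grew with time. At 6 h, 137 genes were called (0.863% of the genes tested), 33 higher (0.208%) and 104 lower (0.655%). At 24 h, 3122 were called (19.7%), 1662 higher (10.5%) and 1460 lower (9.2%). The difference between the 2 effects was called for 532 genes (3.35%), and it reached 2-fold for 33. The log2 change was higher at 24 h than at 6 h for 242 of them (1.53%) and lower for 290 (1.83%). The median difference over all genes was 0.05.

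The 137 genes called at 6 h fell into groups by what followed. For 18 the effect deepened, meaning that the difference was called in the direction of the 6 h effect. For 97 it held, meaning that both times were called in 1 direction and the difference was not called. For 5 it recovered, the difference being called against the 6 h effect, and for 1 it turned to a called effect of the opposite sign. The remaining 16 were unresolved. A further 499 genes were late: not called at 6 h, called at 24 h and with a called difference. Another 2507 genes were called at 24 h and not at 6 h, with no called difference. For these 2507 the test does not show whether the effect changed after 6 h. The difference was also called for 9 genes called at neither time, KLF4 and BIRC3 among them. The BIRC3 call was lost without 14 of the 18 libraries, all 6 treated ones included (adjusted p up to 0.123). Over all genes, treated and DMSO libraries did not overlap for 6.14% at 6 h and 26.7% at 24 h. Since the 6 h libraries chose these genes and also enter the difference, the groups are a description. Of the 104 genes lower at 6 h, 86 were also called lower at 24 h (82.7%), which is 5.89% of the genes lower at 24 h. Of the 33 higher at 6 h, 29 stayed called (87.9%), 1.74% of those higher at 24 h.

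Counts changed when libraries of the first type were fitted alone. That fit leaves out 13 libraries of the second type and 6 of another type, marked by MT-ND6. The estimate of the spread changes with them, and the cause of the moves was not tested. With libraries of the first type alone, 2434 differences were called (15.3%), 1226 higher (7.73%) and 1208 lower (7.61%), with 535 genes called at 6 h (3.37%; 177 higher, 1.12%, and 358 lower, 2.26%) and 5660 at 24 h (35.7%). All 532 differences kept their direction and call there. The 18 deepened genes stayed deepened, and of the 97 held genes 77 held, 19 deepened and 1 recovered. Of the 16 unresolved genes 9 recovered there, so that 15 of the 137 recovered or turned with that type, against 6 with all libraries.

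**Figure D1:**
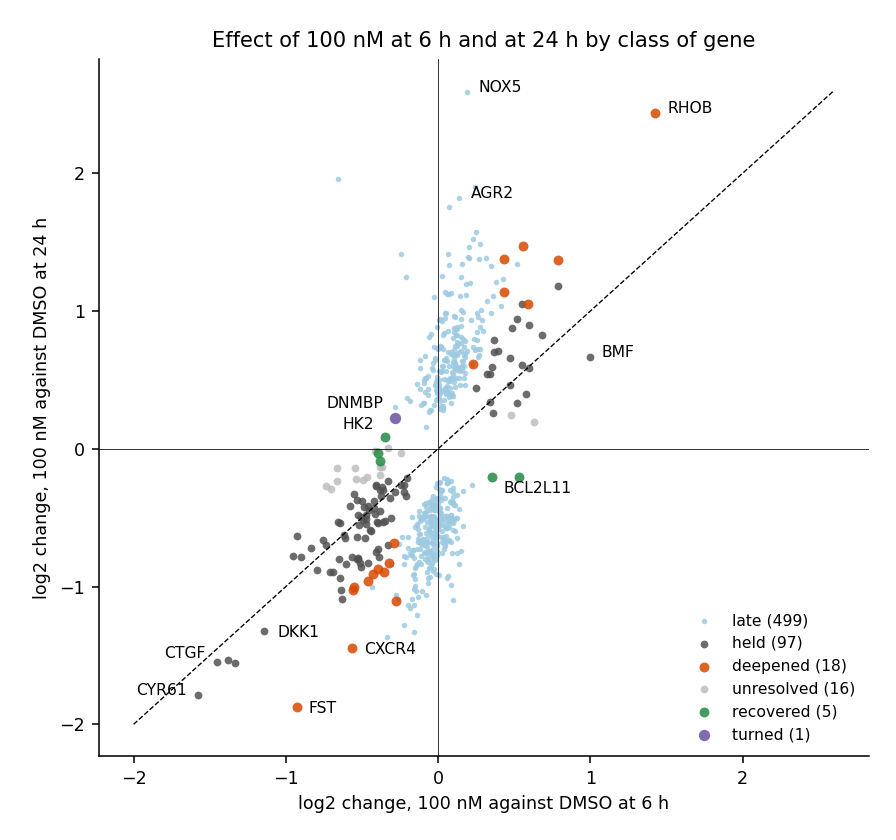
Log2 change of 100 nM against DMSO at 24 h (y axis) against that at 6 h (x axis) for genes called at 6 h or late, coloured by group. On the dashed line both effects are equal: the 97 held genes lie near it, and the 18 deepened genes lie farther from 0 at 24 h. The 499 late genes were not called at 6 h, with medians there of 0.08 for those that rose and -0.03 for those that fell. Single late genes stand farther out at 6 h, such as AUNIP (-0.43) and GJB2 (0.38).

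YAP1/TAZ target genes were among those that held, 13 of the 97. CYR61 measured 99.4, 91.5 and 89.0 FPKM in the 3 libraries at 100 nM for 6 h, and 261 to 315 (median 269) with DMSO. At 24 h it measured 64.4, 66.7 and 62.4, and 214 to 237 (median 222) with DMSO. All treated libraries lay below all DMSO libraries at both times. The log2 change was -1.57 ± 0.07 (SE) at 6 h and -1.79 ± 0.07 at 24 h, so that the difference of -0.22 ± 0.10 had an adjusted p of 0.35 and a 95% interval of -0.42 to -0.01. CYR61 also fell by 0.31 (log2) between the times in DMSO cells (adjusted p = 0.000214).

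CTGF, whose promoter is printed above, measured 41.4, 41.7 and 38.2 FPKM at 6 h against 103 to 134 (median 108), and 28.5, 27.0 and 29.2 at 24 h against 70.6 to 92.1 (median 85.6). Treated and control libraries again stood apart at both times. The changes of -1.45 ± 0.07 and -1.55 ± 0.07 (SE) differed by -0.09 ± 0.09, with a 95% interval of -0.28 to 0.10. ANKRD1 measured 41.7, 42.1 and 39.7 FPKM at 6 h against 89.0 to 141 (median 106), and 39.9, 39.0 and 44.3 at 24 h against 109 to 156 (median 114). Its treated ranges at the 2 times overlapped each other and not DMSO, with changes of -1.38 and -1.53 and a difference of -0.15 ± 0.16 (adjusted p = 0.818).

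DKK1, a secreted WNT inhibitor, measured 112, 106 and 105 FPKM at 6 h against 228 to 245 (median 240.3), and 76.3, 78.9 and 81.1 at 24 h against 184 to 218 (median 195). No treated library reached the control range. The difference of its effects was -0.18 ± 0.09 (95% interval -0.36 to 0.01). EDN1, the endothelin 1 peptide, measured 3.89, 3.54 and 3.06 FPKM at 6 h against 8.14 to 11.5, and 2.73, 2.56 and 2.22 at 24 h against 6.09 to 11.2. Its changes were -1.33 and -1.55.

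Of the 30 YAP1/TAZ targets listed and tested, 15 were called lower (0.655% of all genes) and none higher at 6 h. At 24 h 18 were called lower (9.2% of all genes) and none higher. The medians were -0.38 and -0.54, against 0.01 and 0.05 over all genes. The difference was called for 3, all lower (1.83% of all genes): CRIM1 (-0.51 ± 0.10), IGFBP3 (-0.39 ± 0.10) and AXL, a receptor tyrosine kinase (-0.53 ± 0.13). The IGFBP3 call was lost without 100 nM 24 h replicate 1 (adjusted p = 0.092) or 100 nM 6 h replicate 3 (0.0698). The median difference over the list was -0.08, against 0.05 over all genes. Of the 15 called at 6 h, 13 held and 2 deepened. Among the held were feedback regulators of the Hippo pathway: LATS2, a kinase that restrains YAP1 (-0.36 at 6 h, -0.30 at 24 h), AMOTL2, which binds YAP1 (-0.90, -0.79), and AJUBA (-0.57, -0.79). In the first library type the difference was called higher for 1 and lower for 5 of the 30, against 7.73% and 7.61% of all genes.

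**Figure D2:**
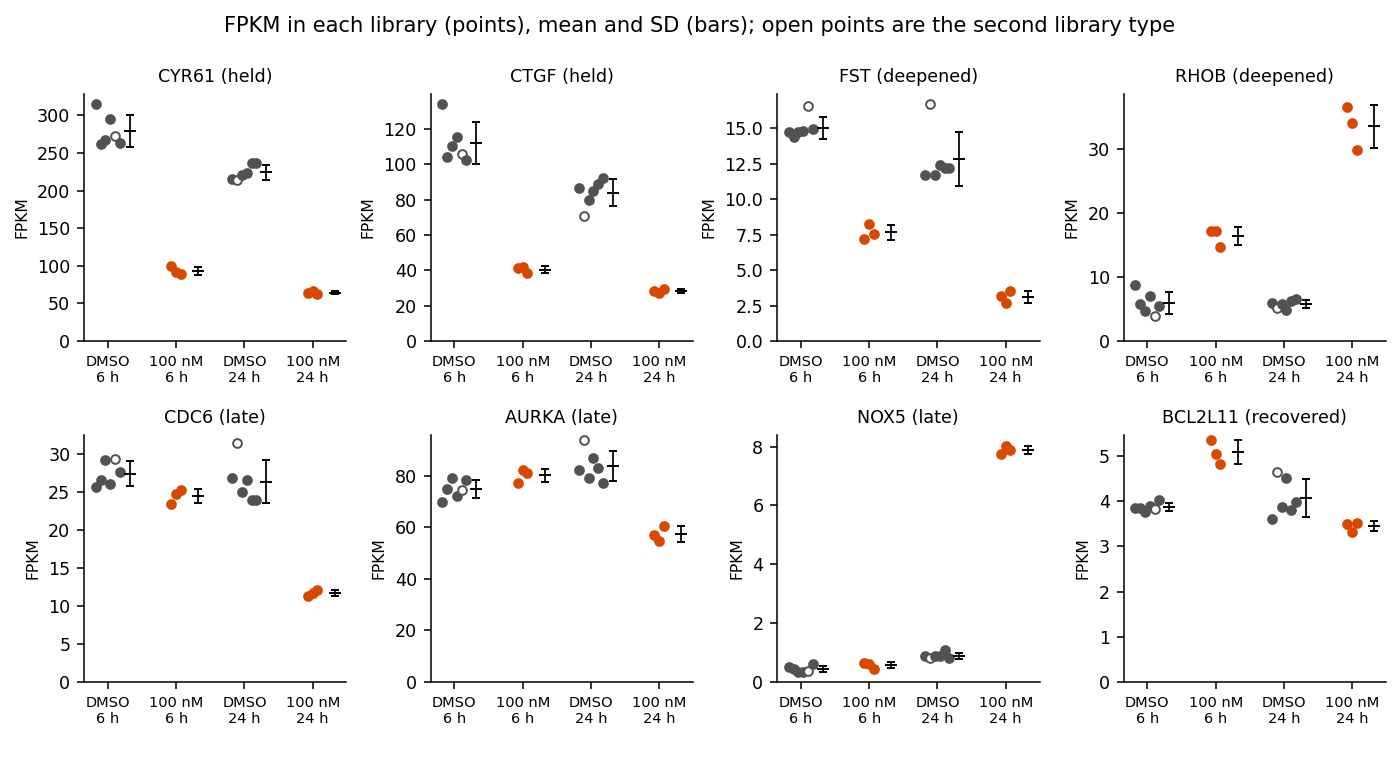
FPKM in each of the 18 libraries for 8 genes; points are libraries, open points the second library type, and bars the mean and SD of a group. CYR61 and CTGF are low at both times of 100 nM, and FST and RHOB move farther at 24 h. CDC6, AURKA and NOX5 move mainly at 24 h, and BCL2L11 is above DMSO at 6 h alone.

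Held genes outside that list included CD274, the immune ligand PD-L1, and HBEGF, an EGF receptor ligand. CD274 measured 3.88, 4.5 and 3.89 FPKM at 6 h against 6.76 to 10.5 (median 8.28), and 2.86, 3.16 and 2.95 at 24 h against 4.53 to 6.87 (median 5.39). The groups did not overlap at either time, and the changes were -0.96 and -0.78, a difference of 0.18 ± 0.16 (adjusted p = 0.758). DMSO cells lost CD274 between the times as well, by -0.57 on the log2 scale (adjusted p = 1.53e-05).

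Held genes that rose numbered 22. BMF, a BH3-only protein of the cell death pathway, measured 1.93, 2.21 and 2.23 FPKM at 6 h against 0.692 to 1.00 (median 0.804), and 2.13, 1.89 and 1.94 at 24 h against 0.758 to 1.36 (median 1.08). Treated libraries were above all controls at both times, with changes of 1.00 ± 0.13 and 0.66 ± 0.13 and a difference of -0.33 ± 0.19 (adjusted p = 0.492). ELF3, an epithelial transcription factor, changed by 0.79 and 1.18, a difference of 0.40 ± 0.21 (adjusted p = 0.462) that was -0.15 under voom, limma's count-based fit, its levels at 24 h being 2.22, 2.27 and 2.20 FPKM against 0.287 to 1.04. Its DMSO level rose by 0.66 between the times (adjusted p = 0.0002). CCNG2, a cyclin of resting cells, changed by 0.60 and 0.59, with an estimated difference of -0.01 ± 0.19 whose sign changed with the settings. ELF3 and BMF are low genes, with 1 and 2 reads in DMSO 24 h replicate 2.

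Holding does not mean that equality was shown. Of the 97 held genes, 63 had a 95% interval of the difference within 0.5 on the log2 scale. The median distance from the estimate to the end of its interval was 0.26 over the 97.

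Genes called at 3 h gave a further view. At 1 h no gene was called at 100 nM by limma (809 had an unadjusted p under 0.05). At 3 h 11 genes were called, all lower (0.0693%). The 3 h libraries do not enter the estimates at 6 h and 24 h or their difference. They do enter the estimate of the spread that all groups share, so the calls are not fully independent. All 3 libraries of 100 nM at 3 h were of the first type, but only DMSO replicates 4 and 5 were. DMSO 3 h replicate 6 was of the second type, and replicates 1 to 3 of another type marked by MT-ND6 (56.9 to 69.9 FPKM, against at most 8.02 in the others at 3 h). The 11 genes were CYR61, CTGF, ANKRD1, EDN1, CD274, F3 (tissue factor, which starts clotting), HBEGF, BDNF (a neurotrophin), PLK2 and SGK1 (kinases) and NABP1. All 11 were called lower at 6 h (0.655% of all genes) and 10 at 24 h (9.2%), NABP1 being the exception at -0.22 ± 0.11. Their median change was -0.55 at 3 h, -0.84 at 6 h and -0.78 at 24 h.

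None of the 11 had a called difference between 24 h and 6 h (3.35% of all genes; 2 had an unadjusted p under 0.05, and voom called 0). The estimates ran from -0.22 to 0.33 with a median of -0.09. F3 measured 96.4, 89.9 and 95.9 FPKM at 6 h against 145 to 179 (median 152), and 69.0, 69.8 and 73.8 at 24 h against 125 to 138 (median 132), a difference of -0.18 ± 0.10 (adjusted p = 0.461). HBEGF measured 16.2, 16.4 and 15.1 FPKM at 6 h against 27.6 to 30.6, and 13.8, 13.5 and 14.4 at 24 h against 21.1 to 30.1. Both genes stood apart from DMSO at both times. In the first library type the differences of F3 (-0.21, adjusted p = 0.00749) and HBEGF (0.20, adjusted p = 0.0336) were called, in opposite directions. With that type alone, which leaves 2 DMSO libraries at 3 h, 6 genes were called lower at 3 h (0.0378%), 5 of the 11 among them: CYR61, CTGF, ANKRD1, F3 and HBEGF.

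**Figure D3:**
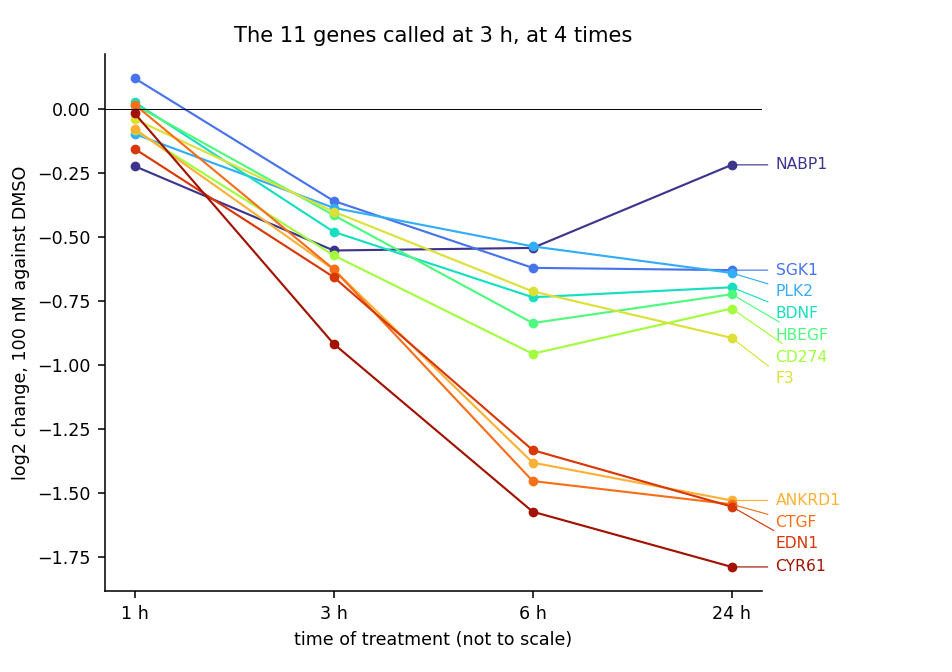
Log2 change of 100 nM against DMSO at 1, 3, 6 and 24 h (x axis, not to scale) for the 11 genes called at 3 h; each line is 1 gene. All 11 are lower at 3 h than at 1 h, and CYR61, EDN1, CTGF and ANKRD1 stay lowest, between -1.79 and -1.53 at 24 h.

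The 18 deepened genes were 7 that rose and 11 that fell. Those outside the naming rule were named after their values were seen. FST, follistatin, a secreted antagonist of activin, measured 7.17, 8.25 and 7.54 FPKM at 6 h against 14.4 to 16.6 (median 14.8). At 24 h it measured 3.20, 2.67 and 3.51 against 11.7 to 16.7 (median 12.2). Every treated library was below every control, and the 24 h libraries were below those of 6 h. The change went from -0.93 ± 0.09 to -1.87 ± 0.09, a difference of -0.95 ± 0.12 (SE; adjusted p = 3.82e-07) that was called without each library in turn. DMSO cells moved by -0.23 (adjusted p = 0.0264).

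RHOB, a small GTPase, measured 17.1, 17.2 and 14.7 FPKM at 6 h against 3.87 to 8.77 (median 5.69), and 36.5, 34.1 and 29.8 at 24 h against 4.90 to 6.59 (median 5.86). The treated groups overlapped neither DMSO nor each other, and their own 2 ranges were far apart. The change rose from 1.43 ± 0.18 to 2.44 ± 0.18, a difference of 1.01 ± 0.26 (adjusted p = 0.0152). The call was lost without 100 nM 24 h replicate 1 (adjusted p = 0.0627) or 100 nM 6 h replicate 3 (0.067).

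A matrix gene and a chemokine receptor also deepened. THBS1, thrombospondin 1, measured 137, 136 and 134 FPKM at 6 h against 192 to 205 (median 201), and 75.5, 73.5 and 72.5 at 24 h against 132 to 163 (median 154). It was below DMSO in every treated library at both times, with a difference of -0.47 ± 0.09 (adjusted p = 0.000799). CXCR4, a chemokine receptor, measured 6.02, 4.20 and 5.38 FPKM at 6 h against 6.78 to 9.84, and 3.45, 2.54 and 3.17 at 24 h against 8.06 to 9.70, a difference of -0.88 ± 0.18 (adjusted p = 0.00134).

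Other deepened genes that fell were CTPS1, which makes CTP (-0.28 at 6 h, -1.11 at 24 h), the RNA polymerase I subunit POLR1E (-0.46, -0.96), the nucleolar genes NOLC1 (-0.36, -0.90) and NOP16 (-0.40, -0.87), the clock repressor CRY1 (-0.43, -0.91), CRIM1 (-0.32, -0.83) and IGFBP3 (-0.29, -0.68). Those that rose were SLC40A1, the iron exporter ferroportin (0.43, 1.38), ST3GAL5, which makes the ganglioside GM3 (0.44, 1.14), ANGPTL2 (0.56, 1.47), LIPG, an endothelial lipase (0.59, 1.05), KLF6 (0.23, 0.61) and TSC22D3 (0.79, 1.37), the glucocorticoid-induced leucine zipper. SLC40A1 rose in DMSO cells as well, by 0.90. The calls of NOP16 and TSC22D3 were each lost without 10 of the 18 libraries, with adjusted p up to 0.146 and 0.13; for both these included all 3 libraries of 100 nM at 6 h, and 100 nM 24 h replicates 1 and 2.

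Recovery was seen for 5 genes and a turn for 1. BCL2L11, the death promoting protein BIM, measured 5.36, 5.05 and 4.83 FPKM at 6 h against 3.77 to 4.03 (median 3.85). At 24 h it measured 3.49, 3.33 and 3.52 against 3.61 to 4.65 (median 3.93). Treated libraries were above all controls at 6 h and below all at 24 h, with changes of 0.35 ± 0.08 and -0.21 ± 0.08 (adjusted p at 24 h = 0.0609). The difference of -0.56 ± 0.11 had an adjusted p of 0.00133. BMF, of the same family, held.

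HK2, a hexokinase at the start of glycolysis, measured 8.46, 8.83 and 8.87 FPKM at 6 h against 10.7 to 11.8, and 10.1, 10.5 and 10.2 at 24 h against 8.78 to 10.9. The treated libraries were below all controls at 6 h and inside their range at 24 h, a difference of 0.43 ± 0.09 (adjusted p = 0.00281). CCND1, cyclin D1, measured 112, 104 and 109 at 6 h against 129 to 158, and 106, 108.3 and 107 at 24 h against 108.3 to 117. At 24 h the treated libraries lay inside their own 6 h range and below or level with the lowest control, and the DMSO level fell by 0.31 (adjusted p = 1.04e-06), a difference of 0.29 ± 0.07 (adjusted p = 0.0142) that was lost without 100 nM 6 h replicate 2 (0.0769). ENC1, an actin-binding protein, went from -0.40 to -0.03, with an adjusted p of 0.00138 for the difference. STOX1 was near 1 FPKM or less in every library and its call was lost without 100 nM 24 h replicate 1 (adjusted p = 0.0793), 100 nM 6 h replicate 2 (0.0696) or 100 nM 6 h replicate 3 (0.105).

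Among the 16 unresolved genes, called at 6 h and with neither a call at 24 h nor a called difference, were MCL1, a survival protein, and PIM1, a kinase, both of which recovered in the first library type. PIM1 changed by 0.63 at 6 h and its estimate at 24 h was 0.20, a difference of -0.43 (adjusted p = 0.301).

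DNMBP, a scaffold that activates CDC42, was the gene that turned. It measured 24.6, 23.0 and 26.2 FPKM at 6 h against 28.6 to 31.2, and 35.8, 32.4 and 34.3 at 24 h against 28.4 to 30.1. The treated libraries lay below all controls at 6 h and above all at 24 h, with changes of -0.28 ± 0.06 and 0.22 ± 0.06 and a difference of 0.51 ± 0.09 (adjusted p = 0.000126). In the first library type BCL2L11 and HK2 turned as well, with 24 h changes of -0.17 (adjusted p = 0.013) and 0.12 (0.0262).

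Genes of DNA replication fell late. CDC6, which loads the replicative helicase, measured 23.4, 24.7 and 25.3 FPKM at 6 h against 25.6 to 29.4 (median 27.1), and 11.3, 11.7 and 12.1 at 24 h against 24.0 to 31.5 (median 25.8). Every treated library was below every control at both times, narrowly so at 6 h. The 6 h change was -0.16 ± 0.07 (adjusted p = 0.733) and the 24 h change -1.13 ± 0.07, a difference of -0.97 ± 0.10 (adjusted p = 1.15e-09). MCM3, a subunit of that helicase, measured 126, 133 and 126 FPKM at 6 h against 128 to 141, and 66.6, 63.8 and 64.0 at 24 h against 113 to 136. GINS2, a cofactor of the helicase, measured 12.1, 12.91 and 12.6 at 6 h against 11.7 to 13.6, and 6.27, 4.68 and 6.24 at 24 h against 10.2 to 13.3. The treated and control libraries of MCM3 and GINS2 overlapped at 6 h and stood apart at 24 h, with differences of -0.85 for MCM3 and -0.93 ± 0.13 for GINS2 (adjusted p = 3.97e-06).

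Of 44 replication and S phase genes tested, none was called at 6 h, with 1 called lower in the first library type. At 24 h 36 were lower (9.2% of all genes) and none higher. The difference was called lower for 30 (1.83% of all genes) and higher for none. The list's median moved from -0.01 to -0.70. PRIM1, the primase subunit, differed by -0.98 ± 0.22, and CCNE2, cyclin E2, by -0.90 ± 0.21. CDC25A, a phosphatase that activates cyclin-dependent kinases and stands in the list of G1 cyclins, differed by -0.78 ± 0.11. In DMSO cells 18 of the 44 fell between the times (4.38% of all genes) and none rose (4.96%), with a median of -0.21. RRM2P3, a pseudogene of the ribonucleotide reductase subunit RRM2, had the lowest difference among called genes, -1.20 ± 0.22, and its reads may be shared with RRM2 (-0.85).

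Of 45 genes of mitosis and G2/M, none was called at 6 h and 33 were lower at 24 h (9.2% of all genes). The difference was called lower for 9 (1.83% of all genes), with no member higher in either comparison. AURKA, a mitotic kinase, measured 77.1, 82.2 and 81.1 FPKM at 6 h against 69.8 to 79.0, and 57.2, 54.6 and 60.7 at 24 h against 77.4 to 93.8. Treated libraries overlapped DMSO at 6 h and were below all of it at 24 h, with a difference of -0.64 ± 0.08 (adjusted p = 1.32e-07). KIF2C, a kinesin of the spindle, differed by -0.63 ± 0.08. CDK1 differed by -0.70 ± 0.18 (adjusted p = 0.017), a call lost without 100 nM 24 h replicate 1 (0.0876) or 100 nM 6 h replicate 3 (0.0543). MKI67, the proliferation marker, was called lower at 24 h (-0.61) while its difference of -0.39 ± 0.19 was not called (adjusted p = 0.372). The list's median difference was -0.46. In the first library type 40 of the 44 replication genes and 42 of the 45 mitosis genes had a called lower difference (7.61% of all genes).

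Ribosome biogenesis, the making of ribosomes in the nucleolus, had called members at both times. Of 33 genes tested, 4 were lower at 6 h (median -0.24) and 27 at 24 h (median -0.56), against 0.655% and 9.2% of all genes. The difference was called lower for 5 (1.83% of all genes), with none called higher in any of these. Within the first library type 15 were lower at 6 h and the difference was called lower for 17, against 2.26% and 7.61% of all genes. FBL, the methyltransferase fibrillarin, measured 98.5, 96.98 and 90.8 FPKM at 6 h against 80.6 to 103, and 55.7, 55.9 and 50.1 at 24 h against 78.4 to 84.3. It was inside the DMSO range at 6 h and below it at 24 h, a difference of -0.62 ± 0.10. DKC1, dyskerin, differed by -0.55 ± 0.11 and NOLC1 by -0.54 ± 0.12. RRS1 changed by -0.69 at both times, with a difference of 0.00 ± 0.31.

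Among late genes outside these lists, PSAT1, of serine synthesis, measured 38.5, 41.4 and 41.9 FPKM at 6 h against 37.1 to 41.1, and 18.5, 17.1 and 18.8 at 24 h against 31.3 to 43.4, a difference of -0.99 ± 0.12. AOX1, an aldehyde oxidase, differed by -1.07 ± 0.14, CPA4, a carboxypeptidase, by -0.997 ± 0.16, and PDE1C, a cyclic nucleotide phosphodiesterase, by -1.03 ± 0.20. The PDE1C call was lost with the 4 groups fitted alone (adjusted p = 0.0811), and its difference was -1.79 under voom and -1.68 with a pseudocount of 0.1. CLSPN, a replication checkpoint adaptor, differed by -1.06 ± 0.28 (adjusted p = 0.0216). Its call was lost without any 1 of 100 nM 24 h replicates 1 and 3 and 100 nM 6 h replicates 2 and 3 (adjusted p up to 0.0707). SFTA1P, a pseudogene, differed by -1.17 ± 0.30, a call lost without 100 nM 24 h replicate 2 (adjusted p = 0.09) or 100 nM 6 h replicate 1 (0.0589).

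The late genes that rose were led by NOX5, a calcium-activated NADPH oxidase. It measured 0.638, 0.627 and 0.459 FPKM at 6 h against 0.346 to 0.598 (median 0.420), and 7.75, 8.00 and 7.89 at 24 h against 0.817 to 1.08 (median 0.877). The 6 h groups overlapped, and at 24 h the treated libraries were far above every other. The change went from 0.19 ± 0.11 to 2.59 ± 0.11, a difference of 2.402 ± 0.15 (adjusted p = 2.36e-16). DMSO cells rose by 0.57 (adjusted p = 6.78e-06).

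AGR2, a disulfide isomerase of secretory epithelium, measured 3.35, 3.25 and 3.69 FPKM at 6 h against 2.74 to 3.94, and 15.2, 15.4 and 14.1 at 24 h against 3.19 to 4.27, a difference of 1.68 ± 0.14 (adjusted p = 6.63e-12). PI16, a secreted peptidase inhibitor, measured 1.78, 1.71 and 1.30 at 6 h against 0.874 to 2.50, and 7.04, 6.67 and 6.01 at 24 h against 0.886 to 2.21. SLC43A2, an amino acid transporter, measured 0.909, 0.902 and 0.935 at 6 h against 0.442 to 0.933, and 4.40, 4.51 and 4.104 at 24 h against 0.390 to 1.22. All 3 genes overlapped DMSO at 6 h and stood above it at 24 h, with differences of 1.69 ± 0.34 for PI16 and 1.65 ± 0.29 for SLC43A2. C9orf152 differed by 1.35 ± 0.21.

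The highest fitted difference belonged to RNU6-26P, a U6 pseudogene with 2, 3 and 1 reads at 100 nM for 24 h and 0 in all 6 DMSO libraries of that time, for which no fold is given; its call was lost without 7 of the 18 libraries (adjusted p up to 0.118). GGTLC5P (1.46) and RASA4DP (1.65) are pseudogenes whose reads may be shared with near copies. The GGTLC5P call was lost without 100 nM 24 h replicate 1 (adjusted p = 0.095), 100 nM 6 h replicate 2 (0.0672) or 100 nM 6 h replicate 3 (0.0509). The RASA4DP call was lost without 14 of the 18 libraries, all 6 treated ones included (adjusted p up to 0.194). MCTS2P (-1.07) lost its call without 8, all 6 treated ones included (up to 0.108).

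Epithelial and matrix lists moved up at 24 h. Of 19 luminal and secretory genes, 1 was higher at 6 h and 12 at 24 h, against 0.208% and 10.5% of all genes. The difference was called higher for 4 (1.53% of all genes): AGR2, MUC1, KRT19 and XBP1. MUC1, a membrane mucin, measured 7.14, 6.02 and 6.50 FPKM at 6 h against 4.13 to 7.11, and 16.6, 14.1 and 12.2 at 24 h against 1.395 to 7.41. The median of the list's difference was 0.44. The calls of MUC1, KRT19 and XBP1 were lost without 5, 10 and 13 of the 18 libraries (adjusted p up to 0.114, 0.133 and 0.176); for all 3 these included 100 nM 24 h replicates 1 and 2, 100 nM 6 h replicates 2 and 3 and DMSO 6 h replicate 1.

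Of 32 matrix and integrin genes, 2 were lower at 6 h (0.655% of all genes). At 24 h 17 were higher and 4 lower, against 10.5% and 9.2% of all genes. The difference was called higher for 7 and lower for 2 (1.53% and 1.83% of all genes), THBS1 among the latter. FN1, fibronectin, measured 117, 111 and 110.1 FPKM at 6 h against 95.1 to 116, and 169, 154 and 155 at 24 h against 49.0 to 93.8, a difference of 0.96 ± 0.17 (adjusted p = 0.000122). FN1 rose while it fell by 0.47 in DMSO cells. TIMP3, an inhibitor of metalloproteinases, differed by 0.52 ± 0.06. ITGB4, an integrin of hemidesmosomes, differed by 1.29 ± 0.38 (adjusted p = 0.043), a call lost without 12 of the 18 libraries, all 6 treated ones included (up to 0.135). In DMSO cells 18 of the 32 fell between the times (4.38% of all genes) and none rose (4.96%).

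Signalling genes formed a smaller late group. Of 19 immediate early genes and feedback regulators tested, 1 was lower at 6 h (0.655% of all genes). At 24 h 9 were higher and 2 lower, against 10.5% and 9.2% of all genes. The difference was called higher for 5 (1.53% of all genes) and lower for none. DUSP6, a phosphatase that restrains ERK, measured 28.2, 25.7 and 25.4 FPKM at 6 h against 27.8 to 30.1, and 47.3, 44.8 and 46.0 at 24 h against 24.5 to 32.5, a difference of 0.71 ± 0.10 (adjusted p = 1.42e-06). SPRY4, another ERK inhibitor, differed by 0.79 ± 0.18. AREG, an EGF receptor ligand, differed by 0.67 ± 0.20, and its call was lost without 14 of the 18 libraries, all 6 treated ones included (up to 0.127).

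Of 12 KLF factors, which restrain growth or drive differentiation in many epithelia, 1 was higher at 6 h (0.208% of all genes). At 24 h 7 were higher and 1 lower, against 10.5% and 9.2% of all genes. The difference was called higher for 5 (1.53% of all genes) and lower for none, with a median of 0.41. KLF6 (0.38 ± 0.08) kept its call without each library. KLF9 (0.70 ± 0.20), KLF13 (0.62 ± 0.19) and KLF4 (0.59 ± 0.16) lost theirs without 12, 14 and 6 of the 18 (up to 0.137, 0.133 and 0.116), in each case without 100 nM 24 h replicates 1 and 2 and 100 nM 6 h replicates 2 and 3 among others. KLF2 measured 7.29, 5.65 and 5.48 FPKM at 6 h against 1.92 to 15.0 (median 2.96), and 16.5, 13.1 and 13.1 at 24 h against 2.21 to 3.33. Its difference of 1.56 ± 0.48 was not called (adjusted p = 0.0616), and in the first library type it was (1.75, adjusted p = 0.0109).

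Some FOXO targets and quiescence genes were called early. Of 23 tested, 6 were higher at 6 h (median 0.30) and 16 at 24 h (median 0.58), against 0.208% and 10.5% of all genes. The difference was called higher for 1, TSC22D3 (1.53% of all genes), with no member called lower in any of these. In the first library type it was called higher for 10 (7.73% of all genes) and lower for none. Of the 30 interferon-stimulated genes, none was called at 6 h and 12 were higher at 24 h (10.5% of all genes). The difference was called higher for OAS2 (0.72 ± 0.11), IFI35 (0.99 ± 0.27) and MX1 (0.44 ± 0.13), against 1.53% of all genes. For this list, 12 were called higher in the first library type (7.73% of all genes). OAS2, an RNA sensor, measured 13.7, 13.8 and 13.6 FPKM at 24 h against 5.61 to 7.44. The interferon list rose in DMSO cells too, 17 of 30 called higher and none lower between 6 h and 24 h (4.96% and 4.38% of all genes). The IFI35 call was lost without any 1 of 100 nM 24 h replicates 1 and 2 and the 3 libraries of 100 nM at 6 h (up to 0.0901), and the MX1 call without 12 of the 18 libraries, those 5 among them (up to 0.177).

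Single members of other lists were called. Of 14 prenylation genes, none was called at 6 h. At 24 h 1 was higher and 4 lower, against 10.5% and 9.2% of all genes, and the median difference was -0.04. The first library type gave a called difference higher for 1 and lower for 4 of them, against 7.73% and 7.61% of all genes. RHOA, a small GTPase, measured 320.4, 321 and 326 FPKM at 6 h against 270.3 to 307, and 432, 445 and 454 at 24 h against 285 to 307, a difference of 0.42 ± 0.07 (adjusted p = 2.05e-05). GGPS1, which makes the lipid geranylgeranyl diphosphate and was the prenylation gene with a called difference, differed by 0.48 ± 0.14 (adjusted p = 0.0432), a call lost without 14 of the 18 libraries, all 6 treated ones included (up to 0.157). PGGT1B, the catalytic subunit of the enzyme that attaches that lipid, was called at neither time (-0.17 and -0.14) and its difference was 0.03 ± 0.19. NDRG1, a hypoxia-responsive gene, measured 13.9, 13.6 and 13.2 at 6 h against 8.96 to 13.0, and 31.8, 33.4 and 32.0 at 24 h against 8.62 to 14.3, a difference of 1.07 ± 0.17. AKR1C1 and AKR1C2, aldo-keto reductases of the NRF2 response, differed by 0.53 ± 0.13 and 0.47 ± 0.13; they are near copies, so reads may be shared. The AKR1C1 call was lost without 100 nM 24 h replicate 2 (adjusted p = 0.0537) or 100 nM 6 h replicate 3 (0.103), and the AKR1C2 call without 100 nM 24 h replicate 1 (0.0706), 100 nM 24 h replicate 2 (0.095) or 100 nM 6 h replicate 3 (0.176). NFKBIA, the inhibitor of NF-kB, differed by 0.51 ± 0.13 (adjusted p = 0.0127), a call lost without 100 nM 24 h replicate 1 (0.0545).

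Lysosome genes rose at 24 h (13 of 23 higher, against 10.5% of all genes, and none lower) with no called difference. In the first library type, however, the difference was called higher for 10 and lower for 1, against 7.73% and 7.61% of all genes. The 36 nuclear genes of the respiratory chain had no call at 6 h, at 24 h or for the difference, against 0.863%, 19.7% and 3.35% of all genes. With the first library type alone, 5 of them were called higher and 2 lower at 24 h, against 19.0% and 16.7% of all genes. Of the mevalonate list, 1 of 23 differed, near the 3.35% of all genes; this was ACAT2 (-0.49 ± 0.10). In DMSO cells 11 of the 23 rose between the times (4.96% of all genes).

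**Figure D4:**
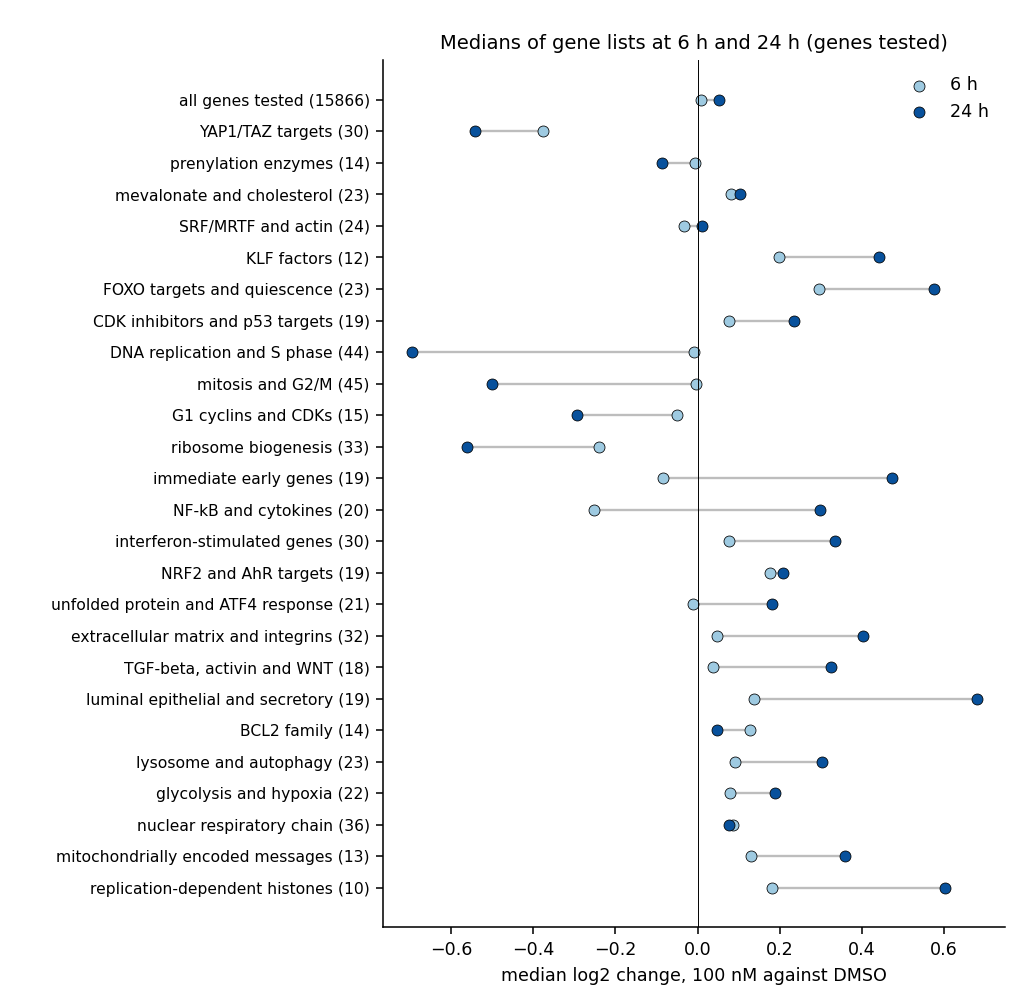
Median log2 change of 100 nM against DMSO at 6 h (light) and 24 h (dark) for gene lists with 10 or more genes tested, with the number of genes tested and all 15866 genes on top. Replication genes move from -0.01 to -0.70 and YAP1/TAZ targets from -0.38 to -0.54, while luminal genes end at 0.68.

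The sum of macrophage markers was higher at the later time of treatment, though not every marker was. At 100 nM for 24 h the 6 macrophage markers in the table summed to 5.76 to 6.58 FPKM, against 1.17 to 3.79 in DMSO at 24 h, 2.96 to 3.41 at 100 nM for 6 h and 2.35 to 4.28 in DMSO at 6 h. CD163 and AIF1, 2 of the 6, were at 0 in all 18 libraries, and CD14, LYZ and CSF1R made up nearly all of the sum. At 24 h CSF1R (1.98 to 2.19 FPKM against 0 to 1.45 in DMSO) and LYZ (1.32 to 1.87 against 0.218 to 1.17) stood above DMSO. CD14 overlapped it (2.06 to 2.83 against 0 to 2.12), and CD68 lay within it (0.0487 to 0.0670 against 0 to 0.117). By limma, all 3 macrophage markers tested were called higher at 24 h (10.5% of all genes), and none had a called difference (3.35%). With the first library type alone, 2 of the 3 had a called higher difference (7.73% of all genes). The 7 fibroblast markers summed to 7.90 to 9.00 FPKM at 100 nM for 24 h against 3.54 to 7.195 in DMSO, and to 5.98 to 6.39 against 3.37 to 5.54 at 6 h, so that they were apart from DMSO at both times. Of these markers COL1A2 measured 5.27 to 6.21 FPKM at 24 h against 1.67 to 4.70, COL1A1, LUM and PDGFRB lay within the DMSO range, and DCN was at 0 in all 18. Endothelial markers, nearly all of them ESAM, summed to 18.6 to 19.9 FPKM at 24 h against 9.86 to 20.7 and overlapped DMSO. Lymphocyte markers summed to at most 0.688 FPKM and erythroid markers to at most 0.296. The mitochondrially encoded messages summed to 14010 to 17740 FPKM at 100 nM for 24 h against 11410 to 14860 in DMSO. Their part in the changes at 24 h was not tested.

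Among genes with a called difference, the treated level mostly moved more between the times than the DMSO level. The difference chose these genes and contains the treated move. That move also has the larger error (median SE 0.189 against 0.134 in DMSO), so a larger treated move is favoured in advance. The counts are a description. Among the 242 genes with a higher difference, the treated level moved more between 6 h and 24 h than the DMSO level in 225, with medians of 0.63 in treated and 0.06 in DMSO cells. Among the 290 with a lower difference this held for 286, with medians of -0.67 and -0.10. DMSO cells were called to move with the difference in 65 of the 242 and in 67 of the 290. They were called to move against it in 23 of the 242 and in 8 of the 290. CD44, a hyaluronan receptor, was among them, at 159, 161 and 163 FPKM in treated cells at 6 h and 133, 135 and 138 at 24 h, when DMSO cells had fallen from a median of 159 to 111. Over all genes, 1482 were called between 24 h and 6 h in DMSO (9.34%), 787 higher (4.96%) and 695 lower (4.38%).

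The same time course was compared at 1000 nM, where the DMSO libraries cancel. The difference between 24 h and 6 h was itself different at 1000 nM for 91 genes (0.574%), 70 lower (0.441%) and 21 higher (0.132%). In the first library type 345 were called (2.17%; 269 lower, 1.7%, and 76 higher, 0.479%), and 81 of the 91 were called there in the same direction. At 1000 nM for 24 h, replicates 1 and 3 were of the second type, so the first type leaves 1 library there, which is assumed to vary like the other groups. Of the 91, 62 were late genes at 100 nM, 8 held, 5 deepened and none recovered or turned.

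Several genes that held at 100 nM fell farther below DMSO at 24 h than at 6 h at 1000 nM. CYR61 measured 56.5, 58.8 and 55.1 FPKM at 1000 nM for 6 h and 10.4, 11.6 and 14.7 at 24 h, where the 100 nM libraries had gone from 89.0 to 99.4 at 6 h to 62.4 to 66.7. The time differences of its effect were -0.22 at 100 nM and -1.87 at 1000 nM, apart by -1.66 ± 0.12 (adjusted p = 2.05e-14). CTGF measured 24.9, 27.1 and 25.3 at 6 h and 5.38, 6.41 and 6.76 at 24 h, and DKK1 75.4, 66.9 and 76.9 and then 21.6, 17.5 and 16.5. Their time differences were apart by -1.47 ± 0.11 for CTGF and -1.51 ± 0.11 for DKK1, and that of ANKRD1 by -1.22 ± 0.19 (adjusted p = 3.97e-05). EDN1 measured 3.43, 1.99 and 2.46 and then 1.99, 1.42 and 1.56, and its time difference was apart by -0.11 ± 0.20 (adjusted p = 0.883). Of the 97 held genes, 7 were called lower in this contrast and 1 higher (0.441% and 0.132% of all genes).

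Of the 499 late genes, 62 were called in this contrast (0.574% of all genes), 45 of them lower (0.441%). CDC6 measured 24.1, 23.6 and 23.3 FPKM at 1000 nM for 6 h and 5.97, 4.92 and 5.48 at 24 h, a time difference of -1.96 against -0.97 at 100 nM (apart by -0.99 ± 0.11, adjusted p = 4.03e-08). MCM3 measured 117, 125 and 131 and then 35.5, 33.5 and 33.7. Of the 44 replication genes 23 were called lower and none higher (0.441% and 0.132% of all genes). NOX5 measured 13.1, 16.2 and 13.2 FPKM at 24 h of 1000 nM (apart by 0.75 ± 0.17, adjusted p = 0.0168) and AGR2 29.7, 26.7 and 27.8 (0.97 ± 0.17, adjusted p = 0.000296). RHOA was apart by 0.47 ± 0.08 and FST by -0.81 ± 0.14. CXCR4, apart by -0.90 ± 0.21 (adjusted p = 0.0167), was not called in the first library type (-0.56, adjusted p = 0.193). For BCL2L11 and DNMBP the time courses at the 2 doses were apart by 0.02 ± 0.13 and 0.03 ± 0.10, neither called.

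**Figure D5:**
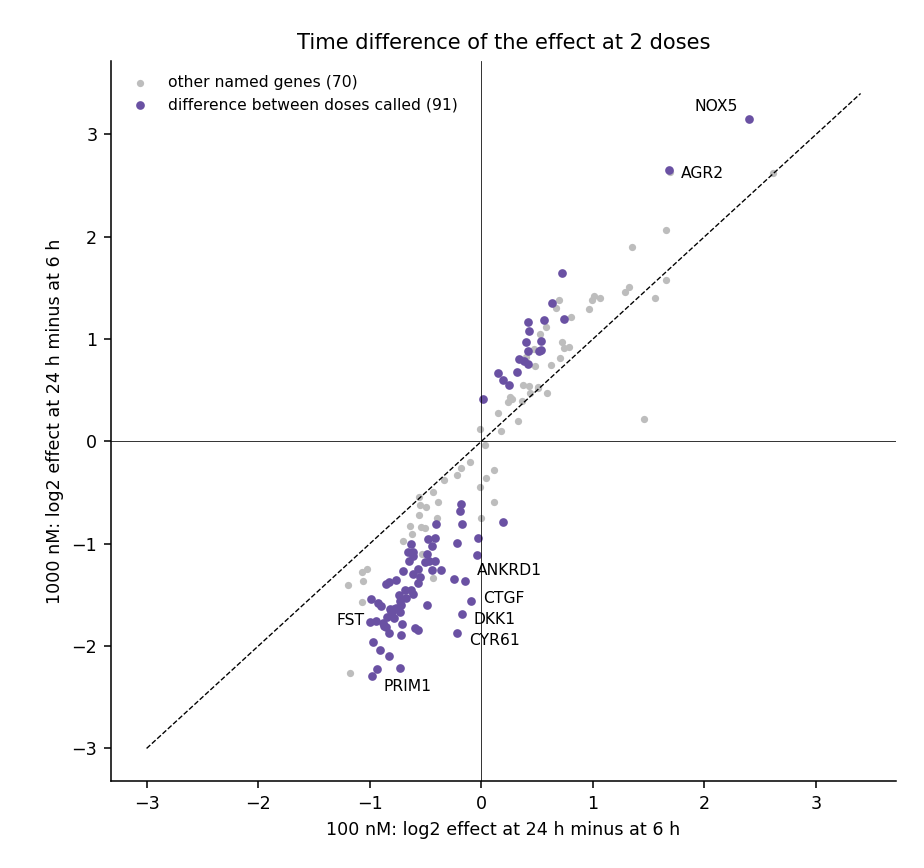
Time difference of the effect (24 h minus 6 h, log2) at 1000 nM (y axis) against 100 nM (x axis) for the 91 genes whose difference between doses was called (purple) and 70 other named genes (grey). CYR61, CTGF, DKK1 and ANKRD1 stand near 0 at 100 nM and between -1.87 and -1.36 at 1000 nM; NOX5 and AGR2 are high at both doses.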

How the data were processed

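The series holds 60 RNA libraries of MDA-MB-231 cells in 16 groups of dose and time. The deposited values are log2(FPKM + 1) for 38342 gene names, made by the authors on hg19 with STAR 2.4.2a, featureCounts 1.4.6-p2 and DESeq2, per the submitters' processing notes, which give no role for each (gene annotation: not given in the sources used here). Libraries were stranded, poly(A) selected and read from 1 end, per the labels' protocols. The design text names a harvest at 24 h alone, while the labels give 1, 3, 6 and 24 h; the labels were used.

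FPKM was recomputed from the deposited log2 values, where plain FPKM had been assumed. Genes at 1 FPKM or more in 3 or more libraries were kept (15866). Limma 3.58.1 (R 4.3.3) was fitted with trend and robust options to log2(FPKM + 0.5) with 16 group means over all 60 libraries (44 residual degrees of freedom), with Benjamini-Hochberg adjustment over all genes for each contrast. Whole reads could be recovered for 36114 of 36114 genes above 0 (within 0.01 read), which gave the depths of 0.475 to 86.5 M reads and the counts for voom. Library types were read from an index of 11 pseudogenes and from MT-ND6: 41 libraries were of the first type, 13 of the second and 6, none among the 18, of another. The scripts were tested on simulated data.

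Genes named are those with the 8 highest and 8 lowest called differences, the 6 highest and 6 lowest called effects at 6 h, up to 3 called members of each list, a set of chosen genes, those called at 3 h and those that turned. Others were named after their values were seen. The genes and lists were chosen with earlier results of these data known. Alternatives covered the pseudocount, the filter, the scaling, weights, the libraries used, library type, depth, voom and leaving out each library. Promoters came from RefSeq on GRCh38.p14 for CTGF (CCN2 there), ANKRD1, GINS2 and MCM3. Some results are not reported here.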

Additional observations from a re-analysis of the deposited data

Results flagged for a closer look

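Single libraries stood far from the other 5 of their DMSO group in 29 of 175 groups of values looked at; chance flags about 1 in 20. DMSO 24 h replicate 2, the library of 0.475 M reads and the second type, gave 20 of them. It was the highest for RRM2P3 (15.98 FPKM), CLSPN (19.09), PDE1C (2.989), PSAT1 (43.42), ANKRD1 (155.5), PIK3C2B (1.755), IGFBP3 (15.82), ACAT2 (24.02), PRIM1 (17.8), CDC25A (13.55), AREG (66.43), MX1 (3.596), FST (16.7), FSTL1 (46.39) and CCNG2 (6.074). It was the lowest for CPA4 (6.262 FPKM), SPRY4 (6.966), DUSP6 (24.53), NFKBIA (20.02) and OAS2 (5.606).

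DMSO 6 h replicate 5, also of the second type, stood apart for CLSPN (19.51 FPKM), CPA4 (10.09), FST (16.55), PGGT1B (2.592) and F3 (179.0). DMSO 6 h replicate 1 stood apart for FSTL1 (32.36 FPKM) and KLF2 (14.96), DMSO 24 h replicate 5 for NOX5 (1.076) and DMSO 24 h replicate 4 for KRT19 (85.1). The part of library type and depth in these values was not tested.

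The effect of 100 nM differed between 24 h and 6 h for 532 genes by the test of the difference itself. The change of that effect differed between 1000 nM and 100 nM for 91 genes by its own test. DNMBP was called in opposite directions at 6 h and 24 h, a difference of 0.505 on the log2 scale.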

How the results depend on the processing

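The order of settings here is array weights, terms for library type, the first library type alone, and that type with the 4 groups alone (the last chosen after seeing the data). The 532 differences called became 3323, 1721, 2434 and 1520, the higher ones (242) 1767, 854, 1226 and 727, and the lower ones (290) 1556, 867, 1208 and 793. Calls at 6 h (137) became 1178, 345, 535 and 263, and at 24 h (3122) 6392, 4855, 5660 and 4690. Deepened genes (18) became 365, 96, 161 and 63, recovered or turned genes (6) 105, 24, 36 and 19, held genes (97) 563, 194, 285 and 166, and late genes (499) 2718, 1576, 2185 and 1415. DMSO changes over time (1482) became 3497, 4162, 4258 and 2704. The dose comparison (91) gave 4469, 317 and 345 under the first 3, and needs groups that the 4 do not hold. With all libraries of the 4 groups alone, 344 differences were called (146 higher), with 10 deepened and 329 late genes. Voom gave 815 differences (373 higher, 442 lower), 277 calls at 6 h, 49 deepened, 11 recovered and 183 held genes. Without the libraries under 2 M reads there were 30 deepened genes and 146 dose calls. The cause of these moves was not tested.

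Leaving out each library in turn gave 311 to 602 differences (135 to 277 higher, 172 to 325 lower), 65 to 167 calls at 6 h, 2061 to 3249 at 24 h, 7 to 24 deepened, 2 to 8 recovered, 52 to 112 held and 290 to 575 late genes, 67 to 111 dose calls and 980 to 1952 DMSO calls. The count of differences moved by over 1.5 times without 100 nM 6 h replicate 2 (328) or replicate 3 (322) and 100 nM 24 h replicate 1 (311) or replicate 2 (341). Calls at 6 h did so without 100 nM 6 h replicate 1 (75), 2 (65) or 3 (80), those at 24 h without 100 nM 24 h replicate 1 (2061), and DMSO calls without DMSO 6 h replicate 1 (980).

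Among the named genes with a called difference, 22 lost the call with the 4 groups fitted alone (CLSPN, CDK1, NFKBIA, KLF4, IGFBP3 and GGPS1 among them), 18 with no filter on low values, 9 with median-of-ratios scaling, 6 with a pseudocount of 0.1 and 5 under voom. C9orf152 (1.35) was 2.29 and GGTLC5P (1.46) 2.53 with a pseudocount of 0.1, and 2.24 and 2.19 under voom. Some differences that were not called changed sign. ELF3 (0.40) was -0.151 under voom and AMOTL2 (0.11) -0.072 under array weights. CCNG2 was 0.001 with a pseudocount of 1, 0.149 under array weights, 0.067 in the first type (also with the 4 groups alone), 0.083 without libraries under 2 M reads and 0.068 under voom. RRS1 was 0.012 and SGK1 0.018 with a pseudocount of 1, and SGK1 0.011 under array weights. Without each library in turn CCNG2 ran from -0.057 to 0.083, RRS1 from -0.124 to 0.122, PGGT1B from -0.062 to 0.101, SGK1 from -0.056 to 0.037 and BDNF from -0.03 to 0.081. Of 65 named genes with a called difference, 39 were called under every other setting and 37 without each library in turn. Scaling moved the median of all genes by less than 0.1. No paired analysis was possible because the numbers in the titles run across all libraries and pair none. With 0.475 M reads in DMSO 24 h replicate 2, genes near 1 FPKM rest on a few reads there.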
